A study of Mus musculus with 7 samples.

Results

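The genes described here are 9 genes of the B lineage and of the transport of immunoglobulin A (IgA), measured by RNA sequencing in the ileum of mice. They were chosen by name for their role, by a rule that used no measured value but with earlier results of these data known, and all 9 were found among the 38293 genes listed in the count table. Pigr encodes the polymeric immunoglobulin receptor of the epithelium. Igj, now named Jchain, encodes the joining chain of polymeric IgA, and Mzb1, Tnfrsf17 and Pou2af1 are genes of antibody-secreting cells and their precursors. Cd79a, Cd79b, Ms4a1 and Cr2 are genes of the B cell surface. Mzb1 is listed under an older name in the table and was matched by its identifier, ENSMUSG00000024353.

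In the intestine, B cells of Peyer's patches and isolated lymphoid follicles switch to IgA, leave through the lymph and return to the lamina propria as plasma cells. Plasma cells there link IgA monomers with the joining chain and secrete the polymer, which the polymeric immunoglobulin receptor binds on the basal side of the epithelial cell and carries to the lumen. Naive and follicular B cells carry the Cd79a and Cd79b signalling chains, the Ms4a1 product CD20 and the complement receptor encoded by Cr2, most of which plasma cells lose as they mature.

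The mice were male C57BL/6NRJ, 8 weeks old and housed individually. After 1 week of acclimatization they received for 2 weeks a high fat, low calcium diet with 40% of its energy from fat. In the normal cys group (n = 4 libraries) the diet held 0.38% cystine, of which 0.3% was added. In the low cys group (n = 3) it held 0.08%, with none added and an equimolar amount of alanine in its place. RNA came from scrapings of the distal end of the small intestine, a mucosal sample. How much lymphoid follicle each scraping held is not given in the sources used here.

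The 250 bases before the start of transcription are printed for 1 gene of each role, the epithelial receptor, the joining chain and a follicular B cell receptor, since these genes behaved differently across the libraries. They are from RefSeq on GRCm38.p6, written 5′ to 3′ on the strand of the gene, at chr1:130826434-130826683 for Pigr, chr5:88527898-88528147 on the reverse strand for Igj and chr1:195176720-195176969 on the reverse strand for Cr2. Capitals mark matches to CAGNTG, an E-box bound by E2A, read on both strands.
Pigr: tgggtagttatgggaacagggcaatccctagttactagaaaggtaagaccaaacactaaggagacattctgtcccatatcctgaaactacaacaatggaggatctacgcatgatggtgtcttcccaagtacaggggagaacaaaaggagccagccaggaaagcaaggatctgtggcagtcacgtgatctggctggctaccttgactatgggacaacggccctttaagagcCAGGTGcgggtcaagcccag
Igj: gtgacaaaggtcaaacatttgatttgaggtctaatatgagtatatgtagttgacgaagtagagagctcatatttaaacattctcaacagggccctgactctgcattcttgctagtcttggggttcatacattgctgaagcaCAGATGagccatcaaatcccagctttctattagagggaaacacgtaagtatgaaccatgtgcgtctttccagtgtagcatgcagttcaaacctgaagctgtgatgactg
Cr2: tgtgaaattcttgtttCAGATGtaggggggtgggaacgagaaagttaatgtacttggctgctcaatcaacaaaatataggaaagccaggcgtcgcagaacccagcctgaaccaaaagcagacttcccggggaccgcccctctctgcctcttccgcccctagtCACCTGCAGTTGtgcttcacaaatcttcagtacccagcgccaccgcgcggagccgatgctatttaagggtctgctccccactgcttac
The RefSeq promoter table held 6 of the 9 genes. CAGNTG was present in 5 of them and in 44.8% of 32851 promoters of the same length. The octamer ATGCAAAT, read on both strands, was in 0 of the 6 and in 1.6% of all promoters, and CCCNNGGG, a short form of the EBF1 motif, was in 0 of the 6 and in 11.8%. The motif of interferon regulatory factors, read on both strands, was in 1 of the 6, Tnfrsf17, and in 2.98%.

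Library totals lay between 19712355 and 22412703 counts on the normal cys diet and between 14888760 and 21942518 on the low cys diet. Values below are CPM, a gene's counts scaled to a common library total, here adjusted by the trimmed mean of M values (TMM). Across 14869 genes tested with edgeR's quasi-likelihood test, 0 genes (0%) passed a Benjamini-Hochberg adjusted p of 0.05, the smallest adjusted p being 0.291, and 817 genes (5.49%) had an unadjusted p under 0.05. DESeq2 called 16 genes and limma-voom 0. The exact permutation test over the 35 divisions of the libraries, with its two-sided p taken as double the smaller tail, cannot go below 0.0571 with 4 against 3 libraries, so it cannot reach 0.05. Nothing in the sources used here states more of the replicates than that they were separate mice, and in bulk tissue fewer cells of a type and less RNA per cell cannot be told apart. The 11 epithelial markers summed to 18922 to 20414 CPM on normal cys and to 15596 to 17992 CPM on low cys.

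Only Igj among the 9 genes had all its low cys libraries above all its normal cys libraries, at a mean CPM 2.37 times that of normal cys, and it did not pass the adjusted threshold. Pigr was the most abundant gene and its groups overlapped. The 4 B cell surface genes varied more between mice of the same diet than between the diets. Of the 8 genes that passed the low-count filter, 6 had a positive log2 fold change, low cys minus normal cys, against 51.2% of all genes tested. One had an unadjusted p under 0.05 (all genes 5.49%, or 2.66% for genes higher on low cys), and the groups of 1 did not overlap (all genes 6.83%, or 3.32% for genes higher on low cys). These shares rest on 8 genes.

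**Figure D1:**
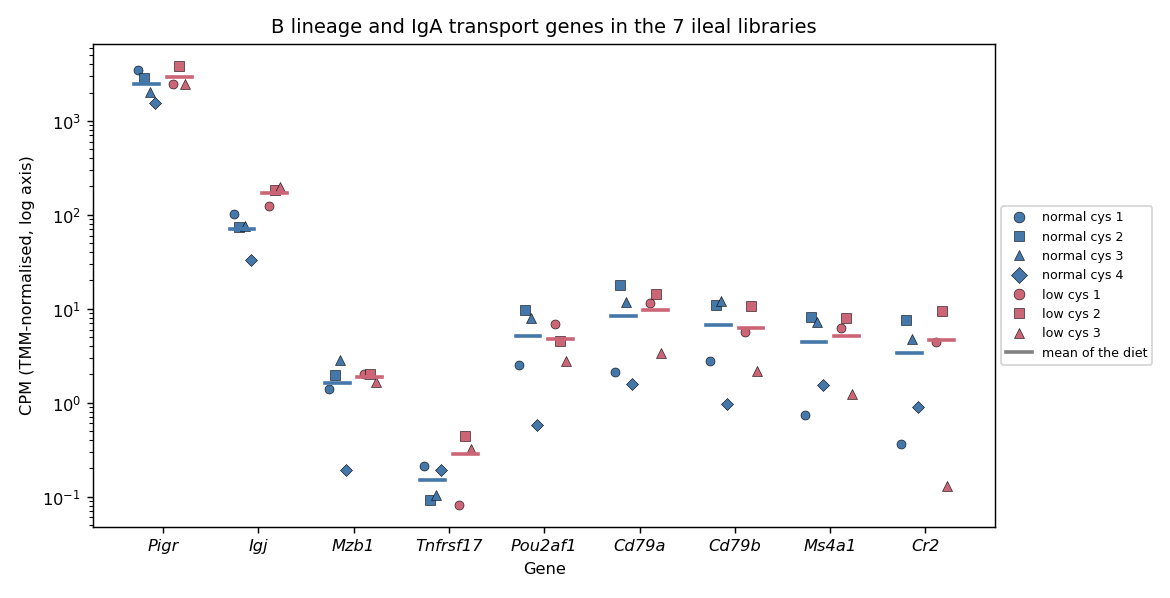
CPM (TMM-normalised, log axis) of the 9 genes in each of the 7 libraries, with 1 symbol for each library and a line at the mean of each diet. Igj is separated by diet, while Cd79a, Cd79b, Ms4a1 and Cr2 span 11.1-fold to 20.5-fold within normal cys and 4.23-fold to 73.2-fold within low cys.

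Pigr (chr1:130826684-130852249, GRCm38) had 3510, 2858, 2004 and 1551 CPM in normal cys 1 to 4 and 2487, 3840 and 2458 CPM in low cys 1 to 3. The highest library was low cys 2 and the lowest was normal cys 4, and the groups overlapped. The mean was 2481 ± 874 CPM (SD, n = 4) on normal cys and 2928 ± 789 CPM (SD, n = 3) on low cys, a log2 fold change of 0.24 with a standard error of 0.299 and an adjusted p of 0.847 by edgeR. Without low cys 2 the log2 fold change was 0.02, and without normal cys 1 it was 0.46. Per kb of exon, Pigr had a median level of 618 CPM over the 7 libraries, against 56.1 CPM per kb for Igj.

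Igj (chr5:88520512-88527891) had 101.7, 74.4, 75.9 and 32.9 CPM in normal cys 1 to 4, from 1947, 1639, 1444 and 688 counts. On the low cys diet it had 124.4, 184.6 and 198.4 CPM in low cys 1 to 3, from 3047, 2954 and 3079 counts. The groups did not overlap, the gap lying between normal cys 1 and low cys 1, and normal cys 4 stood far below the others. The mean was 71.2 ± 28.5 CPM (SD, n = 4) on normal cys and 169.1 ± 39.4 CPM (SD, n = 3) on low cys.

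The log2 fold change of Igj was 1.25 with a standard error of 0.332, an unadjusted p of 0.00476 and an adjusted p of 0.794 by edgeR. DESeq2 gave 1.24 with an adjusted p of 0.148. The exact permutation p was 0.0571, the smallest that the doubled tail allows in this design. Counting instead the divisions with at least as large an absolute difference, a definition tried after the data were seen, gave an exact permutation p of 0.0286. That is the smallest p that this second definition allows. Without normal cys 4 the log2 fold change of Igj was 1.01, with an unadjusted p of 0.000872 by edgeR.

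Markers of other cell types also differed between the libraries. Over all genes tested, 51.2% had a positive log2 fold change and 2.66% were higher on low cys at an unadjusted p under 0.05 by edgeR. The summed level of 10 stromal markers was 30.8 to 36.8 CPM on normal cys and 42.1 to 50.7 CPM on low cys, and of 9 tested 8 had a positive log2 fold change and 2, Dcn (1.55) and Col3a1 (1.58), an unadjusted p under 0.05. Dcn, a proteoglycan of connective tissue, had an adjusted p of 0.794 by edgeR and 0.0292 by DESeq2. The 8 smooth muscle markers summed to 3.06 to 14.2 CPM on normal cys and 6.69 to 46.0 CPM on low cys, highest in low cys 2, though the scrapings were taken without muscle. All 7 tested had a positive log2 fold change, with a median of 1.67, and 3 had an unadjusted p under 0.05, Des (1.89), Actg2 (2.11) and Myl9 (1.68), all with groups that overlapped. The 12 myeloid markers summed to 39.8 to 135.9 CPM on normal cys and 122.7 to 147.4 CPM on low cys, ranges that overlapped, and 11 of them had a positive log2 fold change but 0 an unadjusted p under 0.05 by edgeR. The epithelial sum given above was lower in every low cys library. The part of these markers in the level of Igj was not tested.

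The other genes of antibody-secreting cells had no difference between the diets beyond the spread of the libraries. Mzb1 (chr18:35647266-35649367), a chaperone of the endoplasmic reticulum that aids antibody secretion, had 1.41, 1.95, 2.84 and 0.191 CPM in normal cys 1 to 4 and 2.0, 2.0 and 1.68 CPM in low cys 1 to 3. Normal cys 4, with 4 counts, lay far below the rest, and the low cys libraries sat within the range of normal cys. The log2 fold change was 0.25 with a standard error of 0.632 and an adjusted p of 0.921 by edgeR. Of the 50-base stretches in Mzb1 transcripts, 53.5% also occurred in transcripts of SPATA24. In the annotation used for counting, no exon of another gene overlapped the exons of Mzb1. Whether the shared stretches affected its counts was not tested.

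Tnfrsf17 (chr16:11313812-11320074), the receptor BCMA that long-lived plasma cells need for survival, had 4, 2, 2 and 4 counts in normal cys 1 to 4 and 2, 7 and 5 counts in low cys 1 to 3. It failed the low-count filter and was not tested by edgeR, and no difference was detectable at this depth (exact permutation p = 0.286). Pou2af1 (chr9:51213690-51240079), the B cell coactivator of the octamer factors, had 2.51, 9.58, 8.04 and 0.573 CPM in normal cys 1 to 4 and 6.90, 4.50 and 2.77 CPM in low cys 1 to 3. The groups overlapped throughout, at a log2 fold change of -0.12 with a standard error of 0.769 and an adjusted p of 0.975 by edgeR. The sign of this value turned under several settings given in the closing section.

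The B cell surface genes were high in the same 4 libraries and low in the same 3, in a division that did not follow the diet. Cd79a (chr7:24897381-24902197), which passes the signal of the B cell receptor, had 2.14, 17.9, 11.7 and 1.58 CPM in normal cys 1 to 4 and 11.5, 14.4 and 3.42 CPM in low cys 1 to 3. Cd79b (chr11:106311341-106314762), its partner chain, had 2.77, 10.9, 11.9 and 0.955 CPM on normal cys and 5.71, 10.6 and 2.19 CPM on low cys. In both genes normal cys 2, normal cys 3, low cys 1 and low cys 2 were high, and normal cys 1, normal cys 4 and low cys 3 were low.

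Ms4a1 (chr19:11250603-11266151), which encodes CD20, had 0.732, 8.08, 7.25 and 1.53 CPM in normal cys 1 to 4 and 6.24, 7.94 and 1.22 CPM in low cys 1 to 3. Cr2 (chr1:195136811-195176715), a complement receptor of mature B cells and follicular dendritic cells, had 0.366, 7.49, 4.73 and 0.908 CPM on normal cys and 4.37, 9.44 and 0.129 CPM on low cys. The same libraries were high and low as for Cd79a, in another order within each set. Cr2 in low cys 3 rested on 2 counts.

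None of the 4 passed a threshold. By edgeR the log2 fold change was 0.23 for Cd79a (standard error 0.83, adjusted p 0.944), -0.11 for Cd79b (0.813, 0.980), 0.23 for Ms4a1 (0.844, 0.948) and 0.46 for Cr2 (1.12, 0.918). Within normal cys the highest library exceeded the lowest 11.4-fold for Cd79a, 12.5-fold for Cd79b, 11.1-fold for Ms4a1 and 20.5-fold for Cr2. The SD of log2 CPM over the normal cys libraries was 1.71 for Cd79a and 1.63 for Ms4a1, against a median of 0.309 over all genes tested. Of genes within 0.5 log2 units of its level, 99.7% had a smaller SD than Cd79a, and 99.2% of those near Ms4a1 had a smaller SD than Ms4a1. Of the 50-base stretches in Cd79a transcripts, 8.31% also occurred in Gm32220. Leaving out low cys 2 turned the log2 fold change of Cd79a to -0.12, of Ms4a1 to -0.19 and of Cr2 to -0.52.

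**Figure D2:**
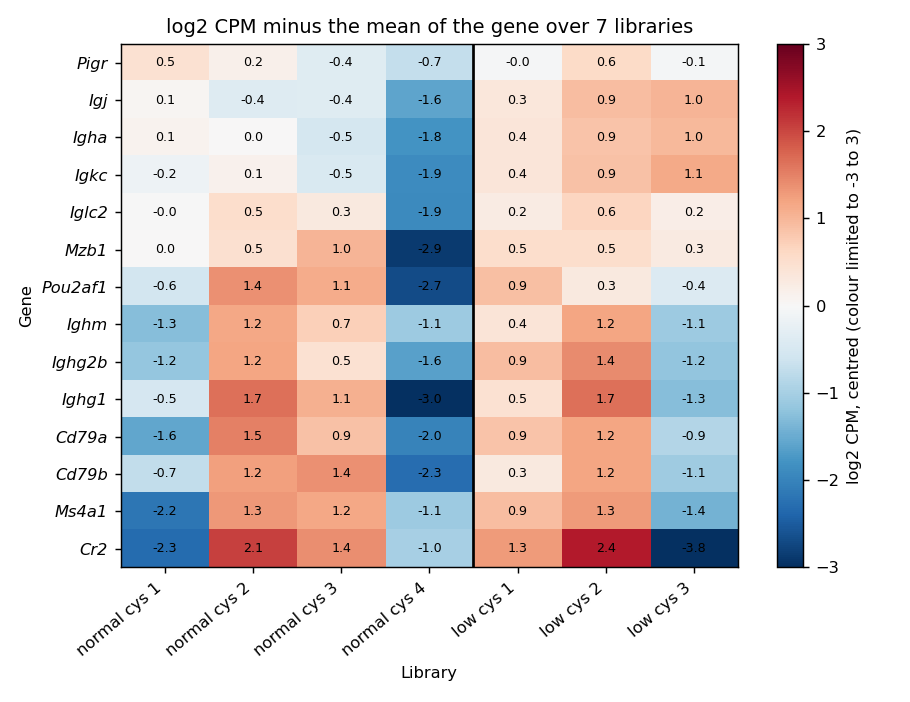
log2 CPM of 14 genes minus the mean of each gene over the 7 libraries, with normal cys libraries left of the line and low cys libraries right of it, in red where above and blue where below the mean. Igj, Igha and Igkc are positive in the 3 low cys libraries, whereas Cd79a, Cd79b, Ms4a1 and Cr2 are negative in normal cys 1, normal cys 4 and low cys 3.

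The immunoglobulin constant genes, which encode the antibody chains themselves, were measured beside the 9 genes. Igha, the heavy chain of IgA, had 538.5, 500.6, 345.2 and 145.2 CPM in normal cys 1 to 4 and 642.1, 901.8 and 987.6 CPM in low cys 1 to 3. Igkc, the kappa light chain, had 278.8, 341.8, 225.1 and 83.4 CPM on normal cys and 398.4, 570.6 and 686.4 CPM on low cys. As for Igj, every low cys library of both genes was above every normal cys library, and normal cys 4 was the lowest.

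By edgeR the log2 fold change was 1.14 for Igha (standard error 0.390, unadjusted p 0.0173, adjusted p 0.794) and 1.25 for Igkc (0.411, 0.0149, 0.794). The exact permutation p was 0.0571 for each gene, and 0.0286 for each when absolute differences were counted, again the smallest that each definition allows. Of the 8 constant genes tested, 2 had an unadjusted p under 0.05, both higher on low cys (2.66% of all genes), and all 8 had a positive log2 fold change (51.2% of all genes). Ighd, Iglc1, Iglc3 and Iglc4 were not analysed here. Ighm, the heavy chain of IgM, had 5.70, 30.8, 22.6 and 6.50 CPM on normal cys and 18.0, 31.2 and 6.51 CPM on low cys. It was low in the libraries in which Cd79a was low, at a log2 fold change of 0.18 with an adjusted p of 0.949 by edgeR. The log2 fold change was 0.11 for Ighg1, 0.60 for Ighg2b, 0.60 for Ighg2c, 0.02 for Ighg3 and 0.40 for Iglc2, each with groups that overlapped.

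**Figure D3:**
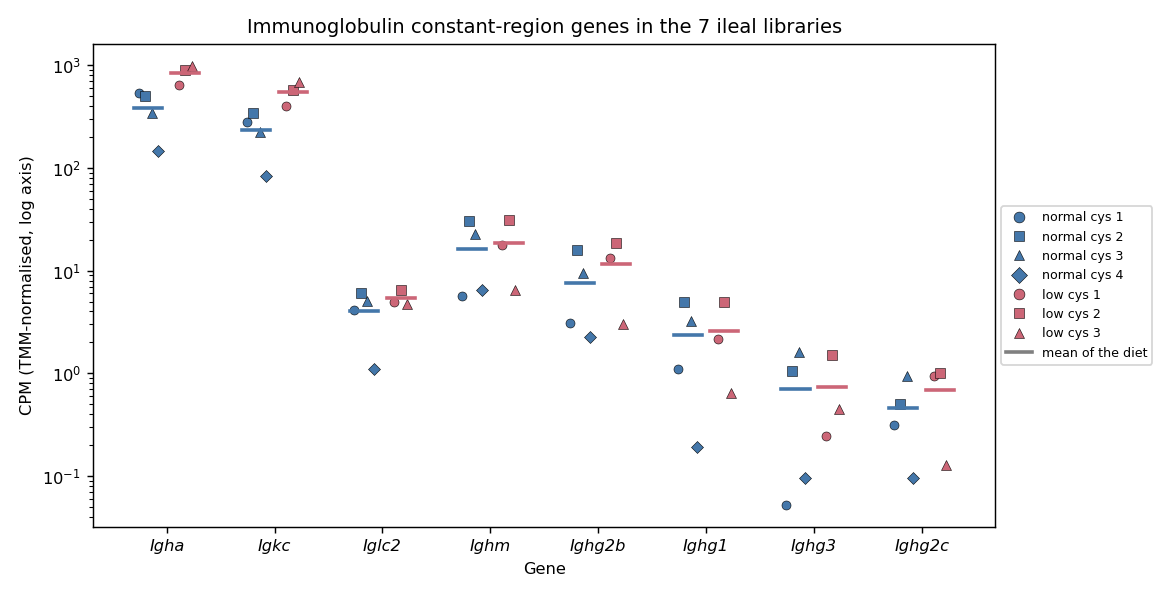
CPM (TMM-normalised, log axis) of 8 immunoglobulin constant genes in each of the 7 libraries, with a line at the mean of each diet. Igha and Igkc do not overlap between the diets, and the IgM and IgG genes do.

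**Figure D4:**
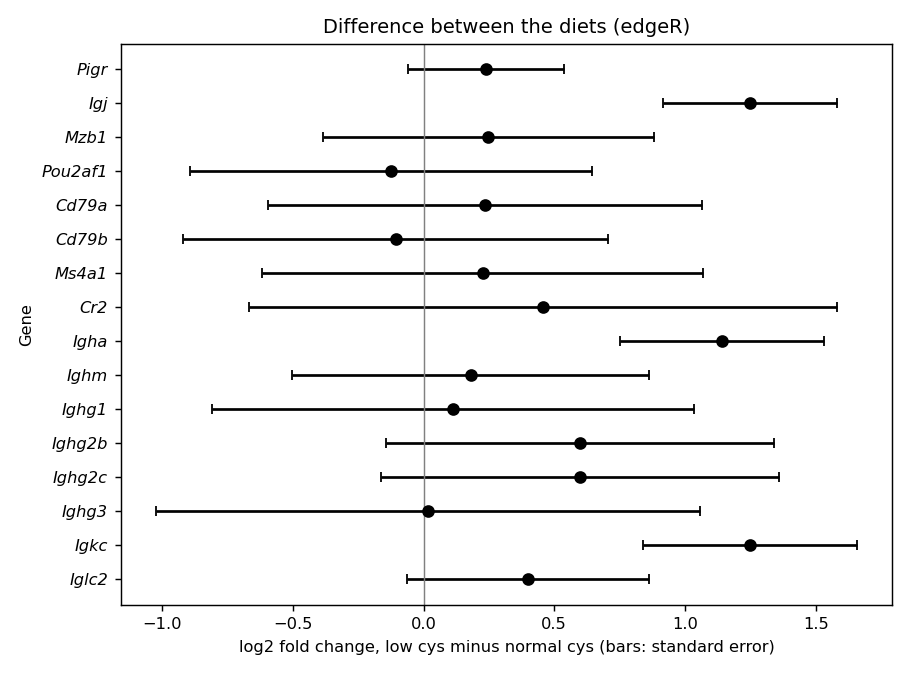
log2 fold change, low cys minus normal cys, by edgeR for the 8 genes tested of the B lineage and IgA transport and for 8 immunoglobulin constant genes, with bars of 1 standard error. Igj, Igha and Igkc lie between 1.14 and 1.25, and the bars of Cd79a, Cd79b, Ms4a1 and Cr2 cross 0.

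Of 6 ratios formed from the counts of the constant genes, Igj and Cd79a, 5 had groups that overlapped between the diets. Igj had 18.9, 14.9, 21.989 and 22.6 counts per 100 Igha counts in normal cys 1 to 4 and 19.4, 20.5 and 20.1 in low cys 1 to 3, so that the groups overlapped (difference 0.38, exact permutation p = 0.971). Igha made up 98.1, 90.4, 90.1 and 94.1% of the heavy-chain constant counts in normal cys 1 to 4 and 94.9, 94.0 and 98.9% in low cys 1 to 3 (difference 2.77 percentage points, exact permutation p = 0.286, or 0.571 adjusted over 6 ratios). The share was highest in normal cys 1 and low cys 3, both low in Cd79a. Normal cys 4, the lowest in Cd79a, had a share of 94.1%, near those of low cys 1 and low cys 2, both high in Cd79a. Ighm made up 4.17 ± 2.21% (SD, n = 4) on normal cys and 2.19 ± 1.36% (SD, n = 3) on low cys, and the summed Ighg genes 2.63 ± 1.62% and 1.86 ± 1.24%. Igkc made up 98.3 ± 0.390% of the light-chain constant counts on normal cys and 99.0 ± 0.279% on low cys, with groups that did not overlap (exact permutation p = 0.0571, adjusted 0.343). The only lambda gene in this share was Iglc2. The log2 ratio of Igj to Cd79a counts, which sets Igj against a B cell surface gene, differed by 0.65 between the diets (exact permutation p = 0.571), with groups that overlapped. The ratios of Igj to Igha and of Igj to Cd79a were chosen after the data were seen.

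**Figure D5:**
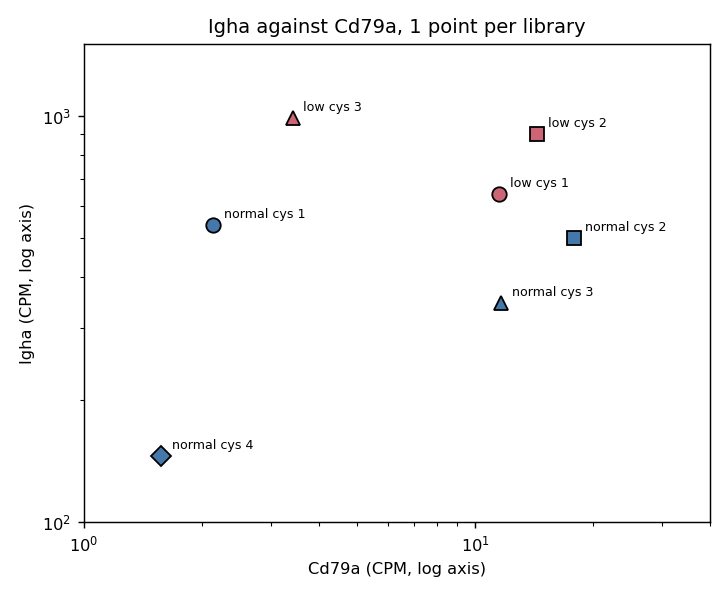
Igha CPM against Cd79a CPM on log axes, with 1 point for each library in blue for normal cys and red for low cys. Low cys 3 has the highest Igha with a low Cd79a, and normal cys 4 is low in both.

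Genes of the same cells and pathways were counted from lists. Of 25 B cell surface and signalling genes, 0 had an unadjusted p under 0.05 by edgeR. Of these 25, 14 had a positive log2 fold change (51.2% of all genes), with a median of 0.07, against 0.0072 over all genes tested. Their summed level ran from 32.1 to 181 CPM on normal cys and from 40.6 to 167.9 CPM on low cys, ranges that overlapped. Of 10 B cell transcription factors, 0 had an unadjusted p under 0.05 and 3 had a positive log2 fold change (51.2% of all genes). Of 9 germinal centre genes tested 0 had an unadjusted p under 0.05.

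Of 19 plasma cell genes tested 1, Igj, had an unadjusted p under 0.05 by edgeR, against 5.49% of all genes. Sdc1, the plasma cell marker CD138 that epithelial cells also make, had 175.6 ± 22.005 CPM (SD, n = 4) on normal cys and 153.9 ± 24.5 CPM (SD, n = 3) on low cys. Tnfrsf13b, the receptor TACI, had 0.669 to 2.68 CPM on normal cys and 1.68 to 3.56 CPM on low cys. Neither gene separated the diets. Among 12 genes tested for the induction, survival and homing of IgA cells 0 had an unadjusted p under 0.05, and Ccl28, the chemokine that draws IgA plasma cells to mucosa, had 38.1, 17.6, 9.36 and 14.0 CPM on normal cys and 43.7, 30.2 and 23.1 CPM on low cys. Il5 and Il10 had no counts.

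Of 21 tested genes that regulate Pigr or carry its vesicles, 0 were higher (2.66% of all genes) and 2 were lower (2.83% of all genes) on low cys at an unadjusted p under 0.05 by edgeR. Of the 21, 5 had a positive log2 fold change (51.2% of all genes), and the groups of 3 did not overlap (6.83% of all genes). The 2 lower genes were Relb, a subunit of NF-κB, at a log2 fold change of -0.44, and Tnfrsf1a, a receptor of tumour necrosis factor, at -0.39. Neither passed the adjusted threshold. The list of follicle stroma and M cells had 12 tested genes. By edgeR, 1 was higher (2.66% of all genes) and 2 were lower (2.83%) on low cys at an unadjusted p under 0.05. Of the 12, 5 had a positive log2 fold change (51.2% of all genes), with a median of -0.07. The higher gene, Ccl21a, the chemokine of lymphoid stroma, had 0.993, 1.14, 0.631 and 0.239 CPM on normal cys and 3.43, 1.94 and 2.84 CPM on low cys. Its log2 fold change was 1.86, with an unadjusted p of 0.00345 and an adjusted p of 0.794 by edgeR, and an adjusted p of 0.143 by DESeq2. Its level in normal cys 4 rested on 5 counts. Marcksl1 had 56.7, 58.4, 75.5 and 61.8 CPM on normal cys and 32.8, 30.5 and 31.97 CPM on low cys, a log2 fold change of -0.99 with an adjusted p of 0.291 by edgeR and 3.86e-06 by DESeq2. The other lower gene was Tnfrsf1a. Of 12 T cell markers, 0 had an unadjusted p under 0.05 by edgeR. Of these markers 1 had a positive log2 fold change (51.2% of all genes), with a median of -0.22. Zap70, a kinase of T cell receptor signalling, was the 1 whose groups did not overlap (6.83% of all genes). It was lower on low cys at a log2 fold change of -0.27.

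The genes most like each role across the 7 libraries were found by the root mean square difference of centred log2 CPM. Igha was the nearest to Igj of all genes tested, at 0.185, followed by Gm20667 at 0.221, the variable gene Ighv14-2 at 0.234, Ms4a6c at 0.238 and Mxra8 at 0.248. Among the 5 genes nearest to Cd79a were H2-Oa, a chain of the class II cofactor of B cells, at 0.221, Rasgrp3 at 0.269, Ighg2b at 0.314 and Siglecg at 0.319. Cd79b was the 18th and Ms4a1 the 20th nearest to Cd79a, while Igha was 3032nd and Igj 4985th. Pou2af1 was 47th and Mzb1 192nd from Cd79a, against 13799th and 3272nd from Igj. Nearest to Pigr were H2-M3 at 0.0961, Lpin1 at 0.137, Gm8994 at 0.144, Ciita, the master regulator of class II genes, at 0.154 and Itpka at 0.156. Igj was 11020th from Pigr, at 0.610, whereas Pigr was 842nd from Igj. The distance grows with the size of a gene's swings as well as with their direction. The root mean square of centred log2 CPM was 0.419 for Pigr and 0.824 for Igj, so these ranks do not show that the 2 genes are unrelated. These distances describe 7 libraries that differ in depth. Some of the genes named had few counts. The highest log2 CPM in any library was 0.06 for Gm20667, 0.37 for Ighv14-2 and -0.03 for Gm8994, levels at which the prior count shapes the pattern.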

How the data were processed

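RNA sequencing of ileal scrapings from 4 normal cys and 3 low cys mice was analysed. The authors prepared stranded polyA libraries, trimmed reads with Trim Galore 0.6.5, aligned them to GRCm38 with STAR and deposited raw counts per gene from featureCounts. Whether strand was used in counting, and how multimapping reads were counted, is not given in the sources used here. The deposited table also gives exon length, used for levels per kb.

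Counts were tested with edgeR 4.0.16 (R 4.3.3) by robust quasi-likelihood fits with TMM scaling and filterByExpr (minimum count 10, total 15), with p-values adjusted by Benjamini-Hochberg over 14869 genes. The comparison was low cys minus normal cys over all 7 libraries. The script was tested on simulated data. The standard errors given with edgeR are not printed by it. They were derived as the absolute log2 fold change divided by the square root of the F statistic of the quasi-likelihood test. log2 CPM used a prior count of 2. For single values an exact permutation test was run, two-sided, its p being double the smaller tail. A second definition, by absolute differences, was tried after the p-values had been seen and is given beside the first where it moves a value past 0.05. The alternatives were DESeq2 1.42.0, limma-voom 3.58.1, other scalings, filters and a non-robust fit, and each library left out. The genes named are the 9 genes, the constant genes tested, up to 4 genes per list by smallest p and the 5 nearest to Pigr, Igj and Cd79a. The genes and lists were chosen with earlier results of these data known. Mzb1 and Igha were matched by identifier, and promoters came from RefSeq. Some genes that this rule names are not reported here.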

Additional observations from a re-analysis of the deposited data

Results flagged for a closer look

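The summed level of the plasma cell list had 1 library far from the others of its diet: normal cys 1 was highest, at 1443 CPM, and its gap to the next library was 0.831 of the range of the normal cys group. Among 36 values examined this was the 1 that stood apart, and chance gives about 1.8. Igj gave 101.7 CPM of the sum in normal cys 1, its highest level on normal cys but below its level in every low cys library. Sdc1, which epithelial cells also make, gave 143 CPM there, its lowest level on normal cys. With Sdc1 in it, the sum is not a measure of plasma cells alone. Which genes of the list raised the sum in normal cys 1 was not examined.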

How the results depend on the processing

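Igj kept a positive log2 fold change under every alternative run, from 1.01 to 1.47 with 1 library left out and from 1.23 to 1.38 under the others, and its smallest adjusted p was 0.148, by DESeq2. It was the 1 gene of the 9 with an unadjusted p under 0.05 under every alternative. Under the permutation definition by absolute differences, tried after the p-values had been seen, Igj (difference 97.9 CPM), Igha (461.4 CPM) and Igkc (319.5 CPM) moved from 0.0571 to 0.0286 by the exact permutation test, and no ratio moved past 0.05. Both values are the smallest that their definitions allow, so the move is a change of floor. Genes with an adjusted p under 0.05 numbered 16 by DESeq2, and 0 to 1 with 1 library left out, the 1 without normal cys 2. Genes with an unadjusted p under 0.05 numbered 258 (without low cys 1) to 1763 (without normal cys 1), and 403 without normal cys 3 and 522 without low cys 3. The sign turned by limma-voom for Pou2af1 (0.50) and Cd79b (0.26), and with library size alone for both (0.022 and 0.025). With 1 library left out the log2 fold change ran from -0.12 to 0.66 for Mzb1, -0.50 to 0.38 for Pou2af1, -0.12 to 0.95 for Cd79a, -0.70 to 0.33 for Cd79b, -0.19 to 0.72 for Ms4a1 and -0.52 to 1.23 for Cr2, the difference in Igj counts per 100 Igha counts from -1.20 to 1.39, and that in the log2 ratio of Igj to Cd79a from -0.12 to 1.28. The cause was not tested. No paired analysis was possible because the labels give the mice of the 2 diets no shared replicate number.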
